A study of Mus musculus with 6 samples.

Results

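The genes described here make, inactivate and sense prostaglandins in the mouse colon: a phospholipase, both cyclooxygenases, 3 terminal synthases, the main inactivating enzyme and 3 receptors for prostaglandin E2 (PGE2). They were taken by gene symbol, and all 10 were found among the 34745 genes measured by RNA sequencing. The colons came from age-matched male mice of 2 groups of 3 libraries each, TRPC-hepta control and TRPC-hepta knockout. By the series title the knockout lacks all 7 TRPC proteins, a family of cation channels through which calcium enters cells. Every mouse, controls included, had received dextran sulfate sodium (DSS), a polysaccharide that injures the colonic epithelium, for 6 days. No untreated colon was analysed here, so a value below is a level in injured colon and never a response to DSS. The labels do not say whether the replicates were separate animals, and p-values therefore measure only the spread between these libraries.

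Prostaglandins are short-lived lipid signals. Cytosolic phospholipase A2 releases arachidonic acid from membranes, a cyclooxygenase turns it into prostaglandin H2, and a terminal synthase converts that into PGE2, prostaglandin D2 or prostacyclin. PGE2 acts through G protein-coupled receptors of the EP family and is inactivated inside cells by 15-hydroxyprostaglandin dehydrogenase, an enzyme abundant in colonic epithelium. In the gut, PGE2 is known for its part in epithelial repair and in inflammation.

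The control libraries held 16819662 to 17584992 counted reads and the knockout libraries 13816295 to 15505327. Knockout replicate 3 resembled a mixture of the other knockout libraries, with weights of 0.497 for replicate 1 and 0.595 for replicate 2. Its median squared deviation from the mixture was 2.62 times what counting alone gives, against 6.81 to 9.29 for control libraries fitted on the others of their group. Whether knockout replicate 3 shares material with the others was not tested, so calls are also given without it. The channel genes do not check the labels: Trpc1 stood at 7.54 to 11.0 CPM in the control and 6.57 to 9.97 CPM in the knockout libraries, and the sources used here do not give the deleted parts. Markers of epithelium were present in every library, with 8 of them summing to 7068 to 14921 CPM. CPM are counts scaled to a common library size by the TMM method.

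Promoter sequences were available for 9 of the 10 genes, from RefSeq on GRCm38.p6, each covering 250 bases before and 50 after the annotated start. The 3 shown belong to the genes with the largest differences in either direction: Ptgs2 and Ptges, which were higher in every knockout library than in any control library, and Hpgd, which was lower. Capitals mark motif matches.
Ptgs2 (chr1:150099781-150100080, plus strand): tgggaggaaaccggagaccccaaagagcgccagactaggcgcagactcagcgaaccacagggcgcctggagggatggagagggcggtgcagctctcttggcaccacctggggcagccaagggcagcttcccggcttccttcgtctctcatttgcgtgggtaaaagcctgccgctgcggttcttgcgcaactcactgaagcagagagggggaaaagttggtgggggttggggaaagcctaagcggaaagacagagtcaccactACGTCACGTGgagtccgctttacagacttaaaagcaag
Ptges (chr2:30903248-30903547, minus strand): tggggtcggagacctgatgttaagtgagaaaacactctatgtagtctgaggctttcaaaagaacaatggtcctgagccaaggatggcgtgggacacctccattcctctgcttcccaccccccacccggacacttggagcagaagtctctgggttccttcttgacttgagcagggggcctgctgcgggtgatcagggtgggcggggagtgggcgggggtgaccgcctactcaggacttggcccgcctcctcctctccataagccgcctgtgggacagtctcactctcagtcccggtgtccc
Hpgd (chr8:56294302-56294601, plus strand): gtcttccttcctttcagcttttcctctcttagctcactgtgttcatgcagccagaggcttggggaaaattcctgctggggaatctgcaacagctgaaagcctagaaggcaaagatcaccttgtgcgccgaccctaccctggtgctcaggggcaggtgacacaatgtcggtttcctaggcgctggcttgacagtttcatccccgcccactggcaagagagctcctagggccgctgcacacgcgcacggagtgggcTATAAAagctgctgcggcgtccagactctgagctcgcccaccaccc

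Of 7 motifs searched on both strands, the Ptgs2 window held a cyclic AMP element core (TGACGT, read as ACGTCA on this strand, bases 13 to 18 after the start) and an E-box (CACGTG, bases 17 to 22). These matches overlap and form the capitalised run. The core occurs in 7.51% and the E-box in 7.15% of 32851 promoters of the same length. The Hpgd window held the letters of a TATA box (TATAAA, bases 5 to 10 after the start, in 13.6% of promoters). Annotations disagree on that start: it is 56294552 here and 56294585 in GENCODE M21, and the match lies before the latter. The Ptges window held none of the 7, which also included the NF-kB consensus (8.46% of promoters), AP-1 (TGANTCA, 7.81%), GAS (TTCNNNGAA, 8.3%) and the CArG box (1.63%). That window, 30903248 to 30903547, lies inside the minus-strand Ptges locus of 30889471 to 30929863. It covers a start within the locus, and the region before the outer end at 30929863 was not searched. A match is a description of letters, not a site shown to be bound.

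The comparison of knockout with control asked which steps of the pathway differed in DSS-treated colon. Ptgs2, the inducible cyclooxygenase, rose from 13.1 ± 5.3 to 71.8 ± 32.9 CPM (SD, n = 3 each). Ptges, the inducible PGE2 synthase, stood at 4.55 ± 0.18 and 32.1 ± 22.0 CPM, and Hpgd, the inactivating dehydrogenase, at 278.6 ± 48.3 and 142.3 ± 68.7 CPM. Neither of these was past the threshold, although their groups did not overlap. Of the 9 members with enough reads to test, 1 was past it, Ptgs2. The threshold was a Benjamini-Hochberg adjusted p under 0.05 in edgeR's quasi-likelihood test over all 15819 genes with enough reads, which called 1.76% of them, 1.09% as higher and 0.67% as lower. At an unadjusted p under 0.05 there were 4 of 9 members, against 16% of all genes tested. In CPM the groups did not overlap for 4 of 9 members, against 21.6% of all genes tested. The median log2 fold change of the 9 was 0.10, and that of all genes tested was 0.01. The members were chosen with earlier results of these data known, so these shares are descriptions only. The plot of CPM in each library shows these levels.

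**Figure D1:**
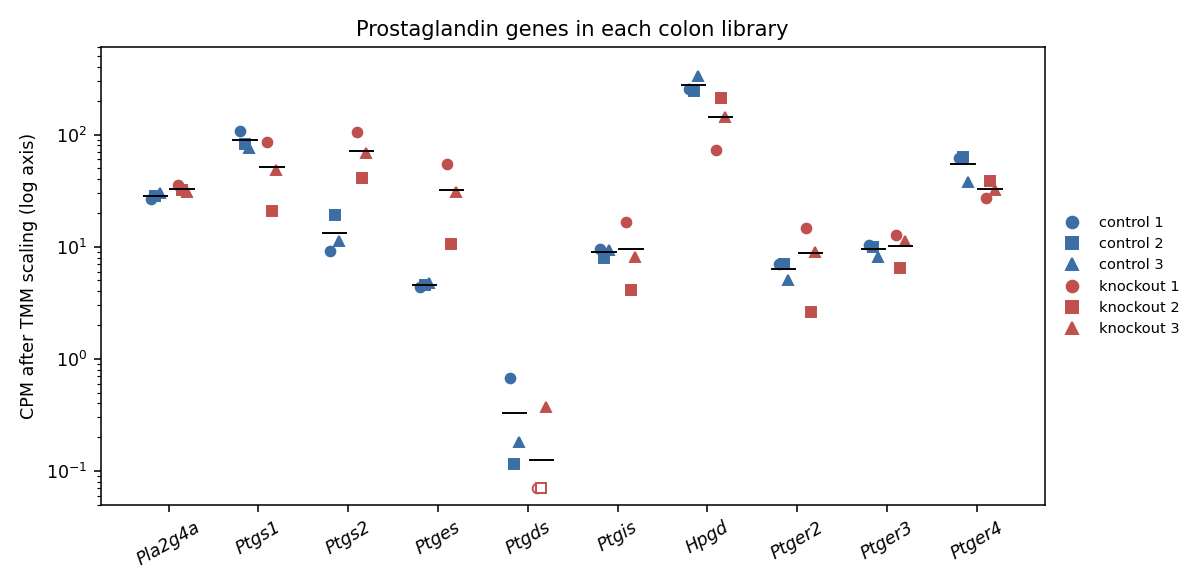
CPM (log axis) of the 10 genes in each library, controls in blue and knockouts in red, with the shape giving the replicate and a line the group mean; open symbols at the bottom are libraries with 0 reads. Ptgs2 and Ptges lie higher and Hpgd lower in every knockout library than in any control library, and in most genes the knockout libraries lie far apart.

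The first step was nearly level. Pla2g4a (GRCm38 chromosome 1, 149829618 to 149961290) encodes the cytosolic phospholipase A2 that releases arachidonic acid. It had 26.9, 28.5 and 29.9 CPM in control replicates 1, 2 and 3 and 35.4, 32.2 and 30.7 CPM in the knockout. The groups did not overlap, but by a small margin. The highest library was 1.11 times the lowest in the control and 1.15 times in the knockout. Its log2 fold change was 0.21 (95% interval -0.12 to 0.53; edgeR, Benjamini-Hochberg adjusted p = 0.522).

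The cyclooxygenases differed from each other. Ptgs2 (chromosome 1, 150100031 to 150108227) had 9.08, 19.1 and 11.2 CPM in control replicates 1, 2 and 3 and 106.5, 41.1 and 67.9 CPM in the knockout. The lowest knockout library was above the highest control library. The log2 fold change was 2.45 ± 0.43 (SE; 95% interval 1.42 to 3.48; edgeR, Benjamini-Hochberg adjusted p = 0.0497), which placed the gene 277th of the 278 genes called. The call was lost without knockout replicate 3 (adjusted p = 0.192 by edgeR, log2 fold change 2.49) and without control replicate 1, 2 or 3 (0.203, 0.129 and 0.181). It held without knockout replicate 1 (0.0491) and 2 (0.00833), and DESeq2 gave 3.18e-06. These fits called very different shares of all genes: 0.093% without knockout replicate 3, 0.191%, 0.123% and 0.179% without control replicates 1, 2 and 3, 1.99% and 11.2% without knockout replicates 1 and 2, and 8.11% by DESeq2. Ptgs2 was also called with no filter on low counts, where 1.39% of genes were. It was not called with RLE factors (1.68% of genes), with a filter on FPKM, fragments per kilobase scaled to library size (1.94%), with limma (0.859% and 1.15%) or with a replicate block (0.0569%).

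Ptgs1 (chromosome 2, 36230426 to 36252272), the cyclooxygenase that many tissues express without stimulus, did not share that pattern. It had 107.6, 82.4 and 76.5 CPM in control replicates 1, 2 and 3 and 85.2, 20.9 and 48.8 CPM in the knockout. The groups overlapped, with knockout replicate 1 inside the control range and the others below it. For Ptgs1 the log2 fold change was -0.78 (95% interval -1.89 to 0.33; edgeR, Benjamini-Hochberg adjusted p = 0.479).

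The balance between the cyclooxygenases was read within each library, where library scaling cancels. The count of Ptgs2 was 0.0844, 0.232 and 0.146 times that of Ptgs1 in control replicates 1, 2 and 3 and 1.25, 1.97 and 1.39 times in the knockout. Per length, in FPKM, Ptgs2 was likewise the lower of the pair in every control library and the higher in every knockout library. On the log2 scale the ratio averaged -2.81 ± 0.73 in the control and 0.59 ± 0.34 in the knockout (SD, n = 3 each), a difference of 3.40. The two-sided exact permutation p was 0.1, the smallest that 3 against 3 libraries can give. Per length, Ptgs2 made up 9.64%, 22.7% and 15.6% of the summed cyclooxygenase FPKM in the control and 61.2%, 71.3% and 63.8% in the knockout. The sum itself was 14.9 to 19.3 FPKM in the control and 40.9, 11.6 and 23.5 FPKM in knockout replicates 1, 2 and 3, so in replicate 2 it lay below every control library while the Ptgs2 share was the highest.

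Among the terminal synthases, Ptges had the largest difference. Ptges (chromosome 2, 30889471 to 30929863) encodes microsomal prostaglandin E synthase-1, which is known to be induced together with Ptgs2. It had 4.39, 4.51 and 4.74 CPM in control replicates 1, 2 and 3 and 54.6, 10.7 and 30.99 CPM in the knockout. The controls were nearly equal, and every knockout library was above them. The log2 fold change was 2.82 ± 0.56 (SE; 95% interval 1.48 to 4.16), larger than that of Ptgs2, but the adjusted p was 0.0674 (edgeR, Benjamini-Hochberg), with knockout replicates that differed 5.13-fold. DESeq2 called it (adjusted p = 1.89e-05), and so did edgeR without knockout replicate 2 (0.00273). Without knockout replicate 3 the value was 0.236.

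Ptgis (chromosome 2, 167191805 to 167240604), prostacyclin synthase, had 9.58, 7.98 and 9.36 CPM in control replicates 1, 2 and 3 and 16.5, 4.09 and 8.04 CPM in the knockout. Knockout replicate 1 was above and replicate 2 below every control library. Its log2 fold change was 0.09 (95% interval -1.04 to 1.22; edgeR, Benjamini-Hochberg adjusted p = 0.952), and the sign turned without knockout replicate 1 (-0.56). Ptgds (chromosome 2, 25466709 to 25470046), a prostaglandin D2 synthase of the lipocalin family, was barely read. It had 11, 2 and 3 reads in the control libraries and 0, 0 and 6 in the knockout libraries, too few to be tested. A library with 0 reads allows up to 3 counts, which is 0.197 CPM in knockout replicate 1 and 0.219 CPM in replicate 2 (counting error only).

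Per length, the breakdown enzyme Hpgd had the highest level of the 10 genes in both groups. Hpgd (chromosome 8, 56294552 to 56321046) had 257.5, 244.5 and 333.8 CPM in control replicates 1, 2 and 3 and 73.3, 210.7 and 142.9 CPM in the knockout. Every knockout library was below every control library, replicate 1 farthest and replicate 2 least. Hpgd had a log2 fold change of -0.97 ± 0.37 (SE; 95% interval -1.86 to -0.08), with an unadjusted p of 0.0364 and an adjusted p of 0.27 (edgeR, Benjamini-Hochberg). The gene was past the threshold in 1 of the 13 alternative fits, without knockout replicate 2 (0.0399).

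Synthesis against breakdown was compared in the same way as the cyclooxygenases. Hpgd had 58.7, 54.2 and 70.4 reads for each read of Ptges in control replicates 1, 2 and 3. In knockout replicates 1, 2 and 3 it had 1.34, 19.8 and 4.61. The log2 ratio of Ptges to Hpgd averaged -5.91 ± 0.19 in the control and -2.31 ± 1.94 in the knockout (SD, n = 3 each). The groups did not overlap, and the two-sided exact permutation p was 0.1, again the smallest possible. The difference of 3.61 became 2.66 without knockout replicate 1 and 4.60 without replicate 2. The plot of ratios and shares sets both balances side by side.

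**Figure D2:**
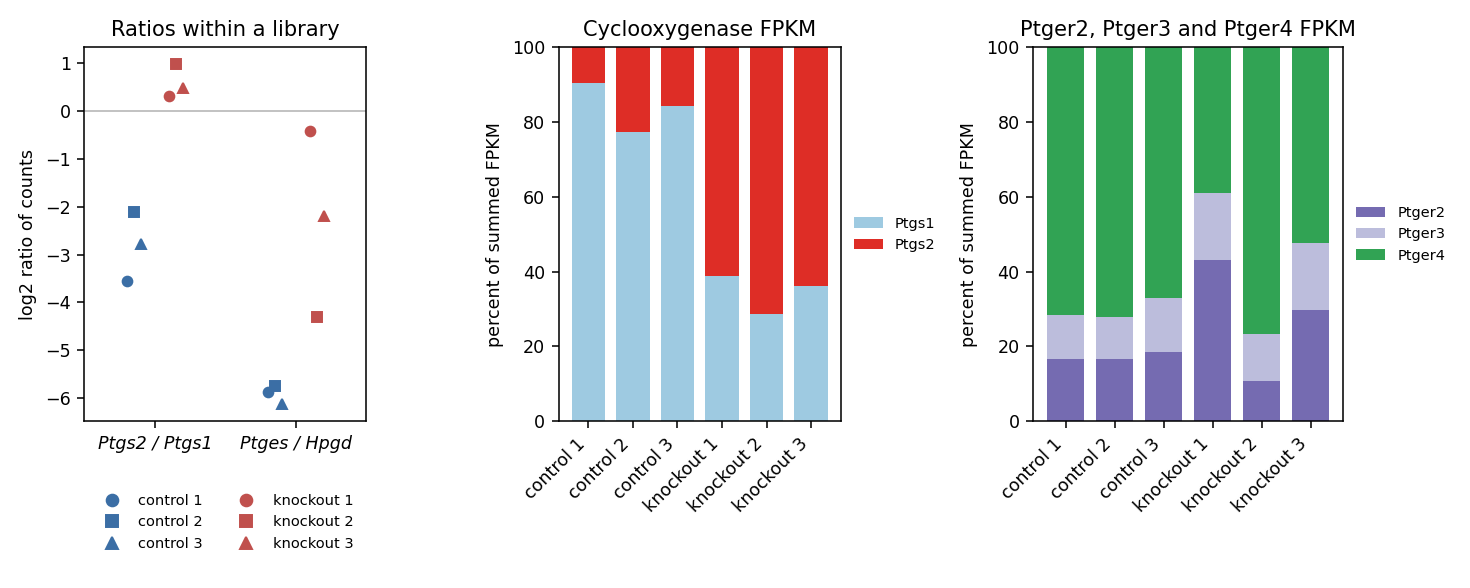
Left, log2 ratio of counts within each library (shape gives the replicate); middle and right, each gene's percent of the summed FPKM of the cyclooxygenases and of Ptger2, Ptger3 and Ptger4. The Ptgs2 share is 9.64% to 22.7% in control and 61.2% to 71.3% in knockout libraries, while the Ptger4 share of the knockout libraries lies on both sides of the controls.

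The PGE2 receptors showed no common shift. Ptger4 (chromosome 15, 5206661 to 5244187) encodes EP4, which raises cyclic AMP. It had 62.5, 62.5 and 37.4 CPM in control replicates 1, 2 and 3 and 27.1, 38.5 and 32.4 CPM in the knockout. Knockout replicate 2 was thus just above control replicate 3. In FPKM, which does not use the TMM factors, it was just below, at 4.78 against 4.81 FPKM, and the groups did not overlap. The log2 fold change was -0.73 ± 0.25 (SE; 95% interval -1.32 to -0.14), with an unadjusted p of 0.0218 and an adjusted p of 0.212 (edgeR, Benjamini-Hochberg). The 3' part of this locus overlaps Ttc33 on the other strand, and the sources used here do not say whether reads were counted by strand.

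Ptger2 (chromosome 14, 44988195 to 45003820) encodes EP2, which also raises cyclic AMP. It had 7.04, 6.94 and 5.04 CPM in control replicates 1, 2 and 3 and 14.6, 2.63 and 8.92 CPM in the knockout. The knockout libraries thus lay on both sides of the controls and differed 5.54-fold. The log2 fold change of 0.46 (95% interval -0.88 to 1.80; edgeR, Benjamini-Hochberg adjusted p = 0.752) turned to -0.13 without knockout replicate 1.

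Ptger3 (chromosome 3, 157566892 to 157645888) encodes EP3, which mostly lowers cyclic AMP. It had 10.3, 9.95 and 8.08 CPM in control replicates 1, 2 and 3 and 12.8, 6.42 and 11.2 CPM in the knockout. These groups overlapped as well, and the log2 fold change was 0.10 (95% interval -0.60 to 0.80; edgeR, Benjamini-Hochberg adjusted p = 0.906). It was -0.01 without control replicate 3 and -0.10 without knockout replicate 1. Per length, Ptger4 held 71.7%, 72.2% and 67.1% of the summed FPKM of the 3 receptors in the control and 38.9%, 76.6% and 52.4% in knockout replicates 1, 2 and 3. Ptger2 held 16.5% to 18.6% in the control and 43.0%, 10.8% and 29.8% in the knockout, so for both genes the knockout libraries lay on both sides of the controls.

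**Figure D3:**
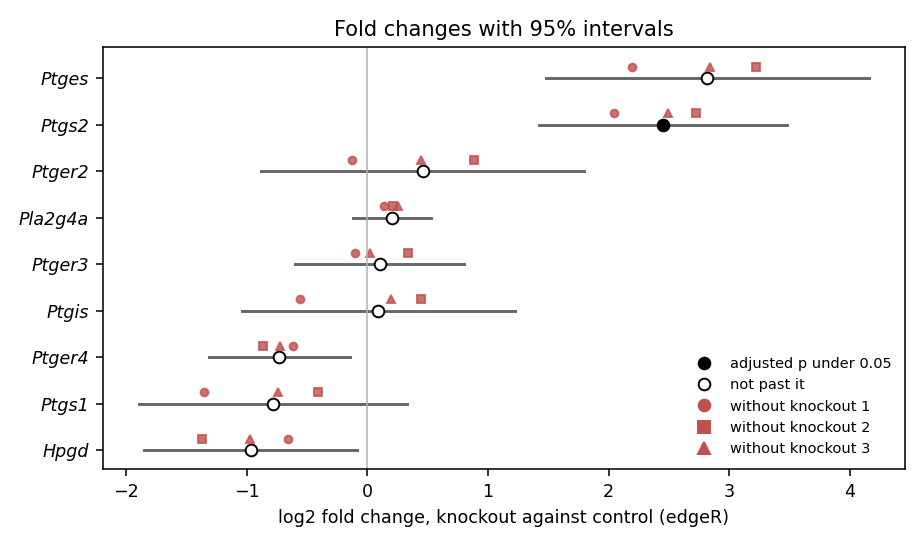
Log2 fold change of the 9 tested genes, knockout against control, with 95% intervals from edgeR; the filled circle is past the threshold, and red symbols give the value with 1 knockout library left out. Only Ptgs2 is filled, at 2.45, and Ptgis, Ptger2 and Ptger3 cross 0 without knockout replicate 1.

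The order of levels, read per length in FPKM, differed between the groups below the top gene. In the control, Hpgd led at 157.8 ± 27.5 FPKM (SD, n = 3), followed by Ptgs1 at 14.6 ± 2.6, Ptger4 at 6.95 ± 1.85 and Pla2g4a at 3.64 ± 0.22 FPKM. Ptgis and Ptgs2 came next at 2.79 ± 0.24 and 2.73 ± 1.13 FPKM, and they were the only neighbours whose ranges overlapped. Ptger2, Ptger3 and Ptges lay at 1.68 ± 0.29, 1.195 ± 0.148 and 0.842 ± 0.038 FPKM, and Ptgds last at 0.119 ± 0.111 FPKM. In the knockout, Hpgd again led, at 82.9 ± 34.4 FPKM, and Ptgs2 came second at 16.1 ± 8.4 FPKM. Ptgs1 followed at 9.22 ± 6.30 FPKM and Ptges at 6.49 ± 4.79 FPKM. From Ptgs2 down to Ptger3 each knockout gene's range overlapped that of its neighbour. Within every single knockout library, however, Ptgs2 was above Ptgs1, Ptgs1 above Ptges, and Ptgis above Ptger2. The other neighbours in this stretch changed order between libraries. In knockout replicate 2, for example, Ptges was below Pla2g4a, at 1.91 and 3.99 FPKM.

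The knockout libraries disagreed with each other in a regular way. In 6 of the 9 tested genes (Ptgs1, Ptgs2, Ptges, Ptgis, Ptger2 and Ptger3) knockout replicate 1 was highest and replicate 2 lowest, and in Hpgd and Ptger4 the order was the opposite. The highest knockout library was a median of 2.88 times the lowest over the 9 genes, against 1.60 over 15605 tested genes with reads in every library. In the control the values were 1.37 and 1.31. Knockout replicate 3 lay between the others in 8 of 9 members and in 72.1% of the 15605 genes.

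Markers of several cell types ran along the same order. Each list is named below with its 2 most abundant markers by mean CPM over all 6 libraries. In bulk tissue, fewer cells of a type and less RNA per cell cannot be told apart. The 8 fibroblast markers summed to 858 to 1116 CPM in the control and to 3398, 831 and 2026 CPM in knockout replicates 1, 2 and 3, led by Col3a1 and Dcn, and 0 of 8 were past the threshold. The 6 endothelial markers, led by Pecam1 and Kdr, summed to 58.0 to 73.0 CPM in the control and to 217, 56.8 and 127.2 CPM in the knockout, with 0 past it. The 6 markers of glia and neurons, led by Uchl1 and Elavl4, summed to 78.2 to 103.1 CPM and to 294.9, 85.8 and 176 CPM, also with 0 past it. The epithelial markers, led by Krt8 and Lgals4, ran the other way, from 12643 to 14484 CPM in the control to 7068, 14921 and 10901 CPM in the knockout, with 0 of 8 past it. The 6 colonocyte markers, led by Car1 and Slc26a2, summed to 8106 to 8705 CPM and to 2796, 7707 and 5482 CPM, with 0 past it.

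Inflammatory markers were higher in the knockout. Of 8 neutrophil markers 6 rose, and their median log2 difference from the control mean was 4.29, 1.96 and 3.63 in knockout replicates 1, 2 and 3. Their sum, 61.3 to 127.5 CPM in the control and 713, 133.9 and 402.8 CPM in the knockout, was dominated by Ly6g, which has close relatives. S100a9 stood at 0.176 ± 0.174 and 63.4 ± 52.2 CPM (SD, n = 3 each). Of 8 macrophage markers 2 rose, Lyz2 and Cd14, and the sum was 148.5 to 183.7 CPM in the control and 451.9, 341.8 and 395 CPM in the knockout. Of 8 smooth muscle markers, led over all libraries by Myh11 and Acta2, 4 fell (Actg2, Des, Myh11 and Lmod1), with sums of 8195 to 11772 CPM and of 3686, 1705 and 2589 CPM. The tuft cell sum, led by Dclk1 and Avil, was 85.3 to 118.1 CPM in the control and 53.6 to 69.6 CPM in the knockout. Mast cell markers, led by Mcpt1 and Mcpt2, summed to 1.099 to 4.63 CPM and 7.87 to 20.3 CPM, and mesothelial markers, led by Msln and Upk1b, to 4.45 to 16.1 CPM and 0.876 to 7.87 CPM. None of these last 3 lists had a marker past the threshold. Without knockout replicate 3, 0 of the 12 marker calls held (edgeR, Benjamini-Hochberg adjusted p from 0.116 to 0.253), in a fit that called 0.093% of all genes. Markers without a read in any library of a group were Cxcr2 of the neutrophil list and Mcpt4 of the mast cell list in the control, and Il25 of the tuft cell list in the knockout.

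**Figure D4:**
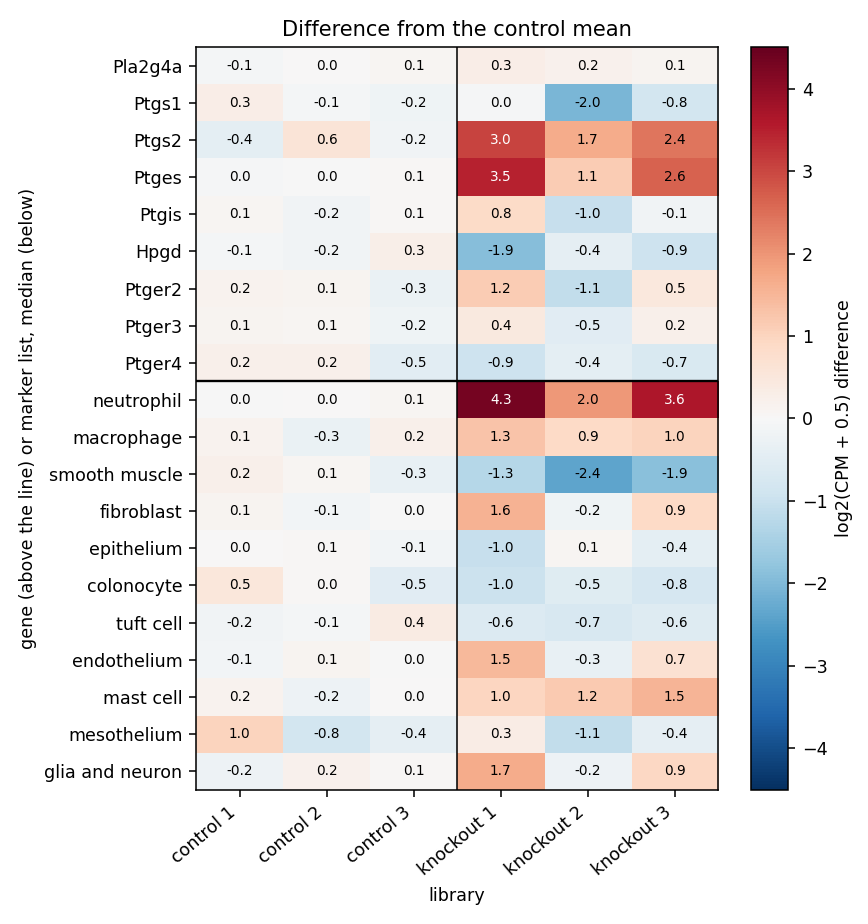
Difference from the control mean on the log2(CPM + 0.5) scale in each library, for the 9 tested genes (above the line) and the median of each marker list (below). In knockout replicates 1, 2 and 3, Ptges reads 3.45, 1.14 and 2.64, the fibroblast list 1.58, -0.19 and 0.90, and Hpgd -1.91, -0.39 and -0.95.

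Levels were also divided by each of the 11 marker sums, a choice made after the data had been seen. The quotients depended on the list, they are descriptions only, and the part of cell makeup in the differences was not tested. The mast cell sum was as low as 1.099 CPM (control replicate 2) and the mesothelial sum 0.876 CPM (knockout replicate 2). Quotients by these sums rest on few reads, and the low end of each range below is a mast cell quotient. Ptgs2 was higher in every knockout library for 8 of the 11 sums and overlapped for the mast cell, neutrophil and macrophage sums, with a log2 ratio of group means from -0.21 (mast cell) to 4.34 (smooth muscle). Ptges was higher for 9 and overlapped for the mast cell and neutrophil sums, from 0.54 to 4.59. Hpgd was lower in every knockout library for 5 sums, the epithelial (log2 ratio -0.71) and colonocyte (-0.31) sums among them, and overlapped for 6, from -3.73 to 1.22. Ptgs1 was lower for 6 sums, higher for the smooth muscle sum and overlapping for 4, from -3.03 to 1.05. Ptger4 was lower for 3, higher for the smooth muscle sum and overlapping for 7, from -3.48 to 1.43.

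The neutrophil quotient turned on Ly6g, which made up 94.5% to 97.9% of that sum in the control and 62.6% to 66.4% in the knockout and was itself not past the threshold (log2 fold change 1.37; edgeR, Benjamini-Hochberg adjusted p = 0.318). Without Ly6g the sum was 2.72, 2.66 and 3.34 CPM in the control and 267.0, 44.9 and 148.9 CPM in the knockout. Ptgs2 and Ptges divided by that sum were then lower in every knockout library, with log2 ratios of -2.97 and -2.86.

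The rest of the eicosanoid pathway was followed through 44 further genes, of which 41 had enough reads to test. Of these 1 rose and 0 fell, against 1.76% of all genes called, and 16 of the 41 had an unadjusted p under 0.05, against 16% of all genes tested. Fold changes were positive for 25 and negative for 16, with a median log2 value of 0.20, against 0.01 over all genes. The list was chosen with earlier results of these data known, so these shares are descriptions only. The gene that rose was Pla2g7, the platelet-activating factor acetylhydrolase made mainly by macrophages. It had 11.2, 10.2 and 13.5 CPM in control replicates 1, 2 and 3 and 48.6, 25.7 and 32.0 CPM in the knockout, without overlap. Its log2 fold change was 1.61 ± 0.27 (SE; edgeR, Benjamini-Hochberg adjusted p = 0.0434), and the call was lost without knockout replicate 3 or any 1 control replicate. DESeq2 called 10 of the 43 genes it tested in this list, 5 in each direction, against 8.11% of all genes.

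Other phospholipases included the members of the list with the widest differences. Pla2g4b, a cytosolic phospholipase A2, had 2.59, 3.70 and 4.44 CPM in the control and 0.0656, 0.730 and 0.0623 CPM in the knockout, without overlap (log2 fold change -3.66 ± 0.83, SE; edgeR, Benjamini-Hochberg adjusted p = 0.088). Its knockout values were 1, 10 and 1 reads, so the size of this fold change rests on very few reads. Pla2g4e, of the same family, had 0.556, 0.521 and 0.243 CPM in the control and 5.31, 1.02 and 2.24 CPM in the knockout, again without overlap (2.68 ± 0.70, adjusted p = 0.128). Pla2g2a, a secreted phospholipase A2, had 1.61, 0.810 and 0.182 CPM in the control and 14.9, 1.09 and 7.36 CPM in the knockout. Its groups overlapped, with knockout replicate 2 inside the control range (3.16 ± 1.04, adjusted p = 0.201). Of 13 phospholipases tested, 10 had positive fold changes.

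Among other prostanoid synthases, 0 of 8 were past the threshold and 3 had positive fold changes. Hpgds, the haematopoietic prostaglandin D2 synthase of mast cells and tuft cells, had 8.09, 6.71 and 6.93 CPM in the control and 4.72, 4.30 and 3.99 CPM in the knockout. Every knockout library was lower (log2 fold change -0.74 ± 0.22, SE; edgeR, Benjamini-Hochberg adjusted p = 0.171). Akr1b7, an aldo-keto reductase with prostaglandin F synthase activity, had a log2 fold change of -1.84 and Akr1c18, another aldo-keto reductase, one of 1.87 (adjusted p = 0.137 and 0.375, edgeR). The PGE2 synthases Ptges2 and Ptges3 had 0 calls, with log2 fold changes of -0.41 and 0.00.

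Breakdown and transport had 0 of 5 genes past the threshold. Cbr1, a carbonyl reductase that can convert PGE2 into a prostaglandin F, had 99.2, 88.8 and 124 CPM in the control and 34.4, 68.4 and 53.7 CPM in the knockout, with no overlap. Its order among knockout libraries was that of Hpgd (log2 fold change -0.996 ± 0.271, SE; edgeR, Benjamini-Hochberg adjusted p = 0.138). Slco2a1, the prostaglandin uptake transporter, and Abcc4, an exporter, had log2 fold changes of 0.04 and 0.71. Ptgr2, a reductase of the inactivated product, stood at -0.09.

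Receptors for other prostanoids gave 0 calls among 5 tested. Ptgdr, a prostaglandin D2 receptor, had 1.36, 0.694 and 1.09 CPM in the control and 3.15, 1.90 and 2.56 CPM in the knockout, without overlap (log2 fold change 1.27 ± 0.40, SE; edgeR, Benjamini-Hochberg adjusted p = 0.18). Tbxa2r, the thromboxane receptor, was lower by CPM in every knockout library, at 3.01 to 5.44 CPM against 2.95, 0.657 and 1.25 CPM. In FPKM, which does not use the TMM factors, its groups overlapped. Knockout replicate 1 had 1.85 FPKM and control replicate 2 had 1.68 FPKM. The log2 fold change of Tbxa2r was -1.38 (edgeR, Benjamini-Hochberg adjusted p = 0.297). Ptgir, the prostacyclin receptor, had a log2 fold change of 1.44 (0.367).

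The leukotriene arm, which shares arachidonic acid with the cyclooxygenases, also had 0 calls, among 10 tested. Alox5, 5-lipoxygenase, had 8.09, 4.97 and 7.17 CPM in the control and 0.918, 2.77 and 1.68 CPM in the knockout. Its partner Alox5ap, the activating protein, had 3.95, 4.16 and 3.28 CPM in the control and 20.003, 6.79 and 11.7 CPM in the knockout. Neither pair of groups overlapped, and the directions were opposite: log2 fold changes were -1.91 ± 0.44 and 1.75 ± 0.41 (SE; edgeR, Benjamini-Hochberg adjusted p = 0.094 and 0.096). Ltb4r1, the high-affinity leukotriene B4 receptor, stood at 0.309 to 0.608 CPM in the control and 1.18 to 1.84 CPM in the knockout (1.71, adjusted p = 0.112).

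**Figure D5:**
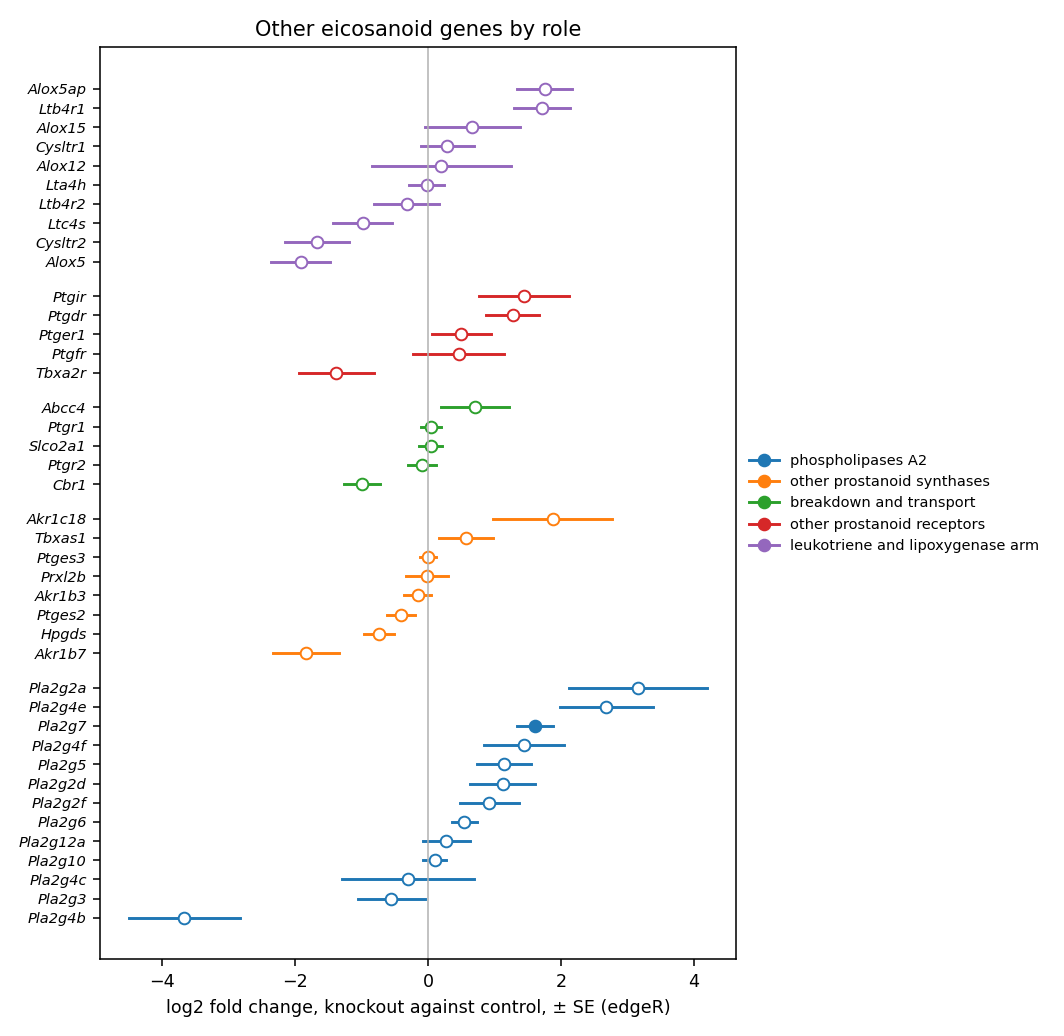
Log2 fold change, knockout against control, with SE from edgeR for the 41 further eicosanoid genes tested, coloured by role; the filled circle, Pla2g7 at 1.61, is past the threshold. Alox5 and Alox5ap lie on opposite sides of 0, at -1.91 and 1.75.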

How the data were processed

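RNA of 6 colon libraries was sequenced. The counts and the FPKM values deposited by the authors come in 1 table, per the file headers; counts are whole reads per gene, not normalized. In genes with at least 100 reads throughout, FPKM followed count over column total within 0.001 log2 units for 100% of 9892 genes. Tools listed in the submitters' processing notes are StringTie 1.3.0, HISAT2 2.0.4 and edgeR, with the builds GRCh38 and mm8; the table's loci instead match GENCODE M21 on GRCm38 (99.9% overlap), so coordinates are given on GRCm38. The sources used here do not say how strand and shared reads were counted.

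Counts were tested with edgeR 4.0.16 (R 4.3.3): TMM, filterByExpr, quasi-likelihood test of genotype without a replicate block, two-sided, Benjamini-Hochberg over 15819 genes at 0.05. SE and intervals come from the test statistic. Ratios used counts plus 0.5 and exact permutation tests. Alternatives were DESeq2 1.42.0, RLE factors, other filters, limma 3.58.1 on log2(FPKM + 1) and log2(FPKM + 0.1), a replicate block and each library left out.

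The members, the 44 further genes and the marker lists were chosen with earlier results of these data known. All members are named; of the further genes, those past the threshold or among the 3 smallest p of their role, and, chosen after their values were seen, Ptges2, Ptges3, Slco2a1 and Pla2g2a; of marker lists, the 2 most abundant, with further markers chosen after their values were seen. Of the further genes 1 symbol, Prxl2b, was matched through a RefSeq synonym.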

Additional observations from a re-analysis of the deposited data

How the results depend on the processing

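Members past the threshold numbered 1 as reported, 2 by DESeq2 (Ptgs2 and Ptges) and 0 with RLE factors, with a filter on FPKM, with limma at either pseudocount and with the replicate block, and ran from 0 to 3 with 1 library left out. The adjusted p of Ptgs2 ran from 3.18e-06 to 0.203 over 13 alternatives, 4 of them past the threshold, and its log2 fold change from 2.05 to 2.82. Further eicosanoid genes past it numbered 1 as reported, 10 by DESeq2, 0 with the FPKM filter, limma or the block, and 0 to 8 with 1 library left out. Over all genes the count was 278, with 1448 by DESeq2, 9 with the block and 15 to 1825 with 1 library left out. The cause was not tested, though leaving out a library also leaves fewer samples.

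The log2 fold change of Ptgis turned to -0.048 with limma on log2(FPKM + 0.1), to -0.12 with the block and to -0.56 at its lowest with 1 library left out, where its highest was 0.44. That of Ptger2 ran from -0.13 to 0.88 and that of Ptger3 from -0.10 to 0.34. Pla2g4a, Ptgs1, Ptgs2, Ptges, Hpgd and Ptger4 kept their direction in all 13 alternatives. The labels do not say whether the library numbers pair the samples. Same-numbered libraries had deviations from their group means that correlated at 0.05, -0.17 and -0.005 across genes. Libraries with unlike numbers ran from -0.20 to 0.20. With 3 libraries per group these correlations cannot show whether the numbers pair. Both count ratios kept their direction under every alternative, with exact permutation p of at least 0.1, but most alternatives could not have turned it. With the block, the differences (3.61 for Ptges to Hpgd and 3.40 for Ptgs2 to Ptgs1) equal those without it by construction. The groups did not overlap in either ratio, so leaving out 1 library could not reverse the sign. With a pseudocount of 1 the differences were 3.60 and 3.40. Depth limits Ptgds, with 16 and 6 reads per group.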
